A study of Mus musculus with 6 samples.

Results

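The insulin-like growth factor (IGF) system of the embryonic day 14.0 (E14.0) mouse palate was described by 10 genes, matched by symbol among the 56691 gene identifiers counted. They comprised the ligands Igf1 and Igf2, the receptors Igf1r and Igf2r, and the binding protein genes Igfbp2, Igfbp3, Igfbp4, Igfbp5, Igfbp6 and Igfbp7. All 10 were among the 15673 genes tested. Bulk RNA-seq had been performed in triplicate libraries (n = 3 per region) of anterior and posterior palate, microdissected from opposite ends of the palatal shelves. All tissue came from C57BL/6J embryos at E14.0, with no allele or treatment named for either region, so region was the single difference stated between the groups. The study describes the bulk samples as biologically independent. The number of embryos behind a library is not given in the sources used here.

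IGF1 and IGF2 are secreted peptides that promote growth and survival of mesenchymal, skeletal and muscle cells. Both signal through the tyrosine kinase receptor IGF1R, whereas IGF2R, which also sorts lysosomal enzymes, takes up IGF2 and delivers it for breakdown. Secreted binding proteins hold the ligands in the tissue, and can limit or prolong their access to the receptor until proteases cleave them. In the mouse embryo Igf2 is transcribed mainly from the paternal chromosome and Igf2r mainly from the maternal one.

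Counts on the sense strand ranged from 11378736 to 15172733 per library, and a count of 0 allows up to 3 counts, or 0.206 to 0.260 normalized counts (CPM, read counts scaled to a common library size of 1e6), for counting error only. Posterior replicates 2 and 3 stood apart from the other 4 libraries in their share of multimapping reads (6.12% and 5.94% against 8.45% to 8.77%). Most differences described below are therefore given as well from a fit with a term for these groups of libraries (library-group term), which takes the difference from posterior replicate 1 and the anterior libraries. In that fit the posterior arm is 1 library, which is assumed to vary like the others. Marker genes of other tissues also differed between the regions. The 10 skeletal muscle markers summed to between 8.80 and 13.6 CPM in the anterior and between 583 and 1050 CPM in the posterior libraries, and all 10 were called higher in the posterior palate. In the anterior libraries none of the 10 was at 0 throughout.

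Both ligand genes were expressed at a higher level in the posterior palate, and no binding protein gene was called in either direction by edgeR with all libraries, region as the only term and the low-count filter. Igf1 was 3.00-fold and Igf2 1.72-fold higher, whereas the 6 binding protein genes ranged from -0.017 to 0.67 in log2 fold change, posterior over anterior. A gene was called where its Benjamini-Hochberg p-value over all genes tested, from the quasi-likelihood test of edgeR, lay under 0.05. By this rule 2 of the 10 IGF genes were called toward the posterior palate, against 4.87% of all genes tested. Another 0 of 10 were called higher in the anterior palate, against 2.59% of all genes. Without the adjustment, 5 of the 10 genes had a p-value below 0.05, all higher in the posterior palate and 2 of them binding protein genes, against 15.9% of all genes in that direction. DESeq2 and edgeR with no low-count filter each called 4 of the 10 toward the posterior palate (Igf1, Igf2, Igf2r and Igfbp3), against 8.56% and 5.01% of all genes. The CPM values of the regions did not overlap for 4 of the 10 genes, all higher in the posterior palate (Igf1, Igf2, Igf2r and Igfbp4), against 14.7% of all genes that were higher in the posterior and 13.4% that were higher in the anterior palate without overlap.

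**Figure D1:**
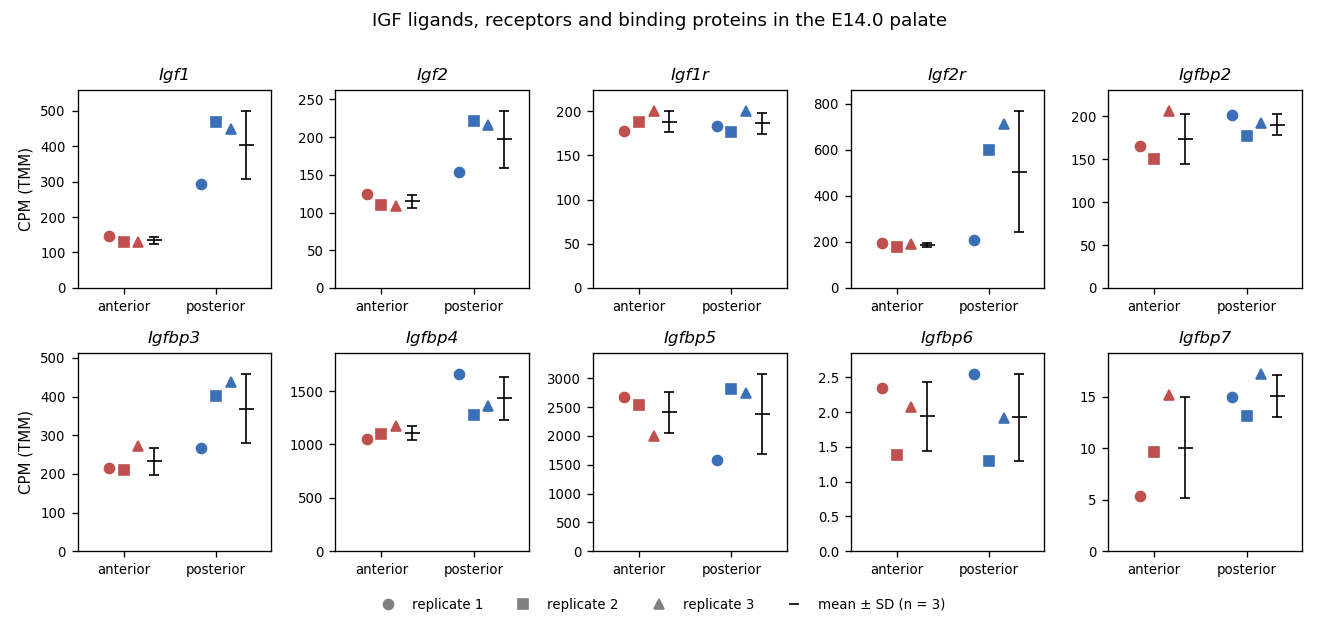
Normalized read counts (CPM, TMM-normalized, linear axes from 0) of the 10 IGF genes in 3 anterior (red) and 3 posterior (blue) libraries, with the mean ± SD beside the points. The Igf1 points lie between 129 and 145 in the anterior and between 294 and 468 in the posterior palate, while the Igf1r points share one range.

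Upstream sequence at annotated transcript starts is shown for the genes whose regions did not overlap. Which of these starts gave the reads counted here was not measured. The windows are the 250 bases before a RefSeq transcript start (GRCm38.p6), written 5′ to 3′ on the strand of the gene. Windows that overlap an annotated exon on that strand, among them the Igf1 window and further Igf2 windows, were left out. Capitals mark TATAAA or GGGCGG, searched on both strands, where GGGCGG is the core of the GC box bound by Sp1 factors and TATAAA is a TATA box. Of 32851 promoters in the table, 12.4% held TATAAA and 32.7% held GGGCGG in the same 250 bases.
Igf2, chr7:142666817-142667066, minus strand: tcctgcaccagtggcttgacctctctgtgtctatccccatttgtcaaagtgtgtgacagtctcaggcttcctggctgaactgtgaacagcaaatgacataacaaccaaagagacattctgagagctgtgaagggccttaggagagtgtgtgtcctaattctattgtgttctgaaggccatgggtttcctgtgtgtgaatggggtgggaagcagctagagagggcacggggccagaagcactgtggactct
Igf2, chr7:142657497-142657746, minus strand: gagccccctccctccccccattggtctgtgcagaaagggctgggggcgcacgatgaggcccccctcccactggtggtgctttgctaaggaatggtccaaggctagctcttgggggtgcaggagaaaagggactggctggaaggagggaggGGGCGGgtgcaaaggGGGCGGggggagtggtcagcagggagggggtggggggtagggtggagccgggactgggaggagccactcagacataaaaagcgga
Igf2r, chr17:12769707-12769956, minus strand: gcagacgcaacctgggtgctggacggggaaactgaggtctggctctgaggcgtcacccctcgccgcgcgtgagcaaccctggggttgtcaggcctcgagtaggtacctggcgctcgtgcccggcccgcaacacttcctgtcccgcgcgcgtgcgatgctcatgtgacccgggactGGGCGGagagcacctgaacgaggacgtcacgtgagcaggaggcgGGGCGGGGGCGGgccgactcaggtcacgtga
Igfbp4, chr11:99040994-99041243, plus strand: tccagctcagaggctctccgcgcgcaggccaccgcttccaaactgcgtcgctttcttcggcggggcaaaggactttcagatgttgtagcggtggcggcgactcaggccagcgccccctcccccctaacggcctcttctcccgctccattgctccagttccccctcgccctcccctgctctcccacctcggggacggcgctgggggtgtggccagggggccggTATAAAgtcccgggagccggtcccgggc
The windows differed in these letters. The Igf2r window held 3 copies of GGGCGG, a pair of them back to back, and the Igf2 window nearer the end of the gene held 2 copies. The outermost Igf2 window held neither motif, and the Igfbp4 window held 1 TATAAA and no GGGCGG. A match is a match of letters and was not tested for binding.

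Igf1 (ENSMUSG00000020053.19; GENCODE M21, GRCm38, chr10:87858265-87937042, plus strand, protein coding) encodes the ligand with the highest affinity for IGF1R. Its normalized counts were 145, 129 and 129 CPM in anterior replicates 1 to 3 and 294, 468 and 449 CPM in posterior replicates 1 to 3. Every posterior library was thus above every anterior library, with posterior replicate 1 the lowest of the posterior values. The mean was 134.5 ± 9.29 CPM in the anterior and 403 ± 95.5 CPM in the posterior palate (SD, n = 3). The log2 fold change was 1.58 (SE 0.18, 95% interval 1.16 to 2.01, adjusted p = 0.00271 in edgeR). The library-group term gave 1.13 (adjusted p = 0.000245). Igf1 was called in all 17 fits that were run, with log2 fold changes between 1.13 and 1.77, and 2.87% of all genes tested had a log2 fold change above its own.

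Igf2 (ENSMUSG00000048583.17; chr7:142650766-142666816, minus strand, protein coding), the main fetal ligand, rose less. It had 125, 110 and 109 CPM in the anterior libraries and 153, 222 and 216 CPM in the posterior libraries. The ranges did not overlap, and the lowest posterior value was again that of replicate 1. The means were 115 ± 8.98 and 197 ± 37.9 CPM (SD, n = 3), with a log2 fold change of 0.78 (SE 0.15, 95% interval 0.42 to 1.14, adjusted p = 0.0237 in edgeR). With the library-group term it was 0.42 (adjusted p = 0.0302). The call was lost when a library was left out, since without any single library other than posterior replicate 1 the adjusted p was between 0.0756 and 0.122, and without posterior replicate 1 it was 5.58e-05. A log2 fold change above that of Igf2 was found for 8.77% of all genes.

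The Igf2 counts may hold a part of its transcripts. In GENCODE M21, 62.8% of its 5723 exon bases are shared on the same strand with Gm49394, a gene of the same locus that had between 0 and 8 counts per library. With an annotation like M21, reads that lie within both genes are counted for neither, which leaves 2127 exon bases that are counted as Igf2. The CPM of Igf2 would then be below its transcript level, and its regional difference would be that of the unshared exons. The annotation behind the counts is not named. It includes Gm49394, which has a row among the counts, but the shared bases were taken from M21 alone. In M21 none of the other 9 IGF genes shares exon sequence on its strand.

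**Figure D2:**
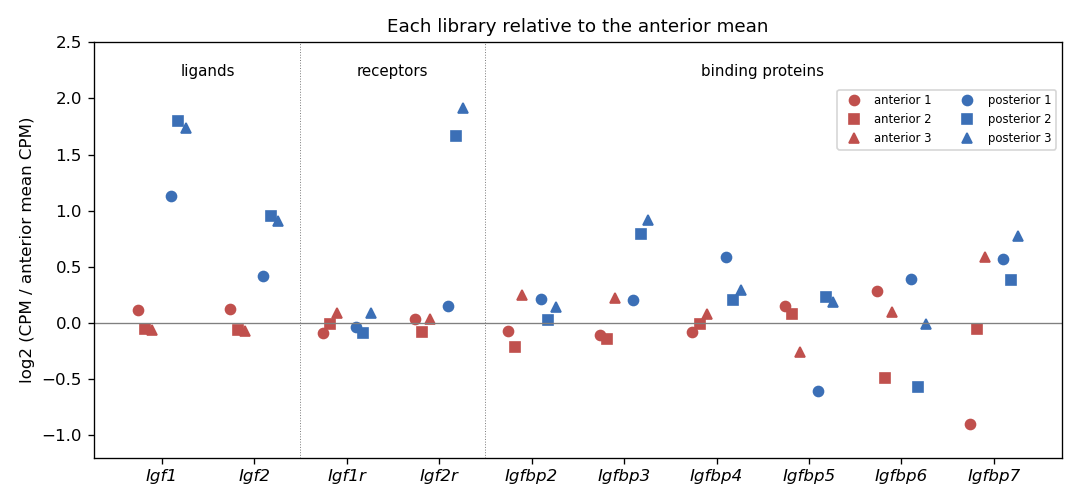
Log2 ratio of each library's CPM to the mean of the 3 anterior libraries (vertical axis) for the 10 IGF genes, grouped as ligands, receptors and binding proteins. Posterior points of Igf1 lie between 1.13 and 1.80 and those of Igf2 between 0.42 and 0.95, whereas Igf2r and Igfbp3 show posterior replicates 2 and 3 well above posterior replicate 1.

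The receptors differed from each other. Igf1r (ENSMUSG00000005533.11; chr7:67952827-68233668, plus strand, protein coding), which transmits the signal of both ligands, had 177, 187 and 200 CPM in the anterior and 183, 177 and 200 CPM in the posterior libraries. The regions overlapped throughout. Its log2 fold change was -0.013 (SE 0.096, 95% interval -0.24 to 0.21, adjusted p = 0.941), an interval that leaves out the change seen for either ligand, and the library-group term gave -0.039 (adjusted p = 0.890). A correction for transcript length moved it to -0.40 (adjusted p = 0.162), outside that interval.

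Igf2r (ENSMUSG00000023830.15; chr17:12682406-12769664, minus strand, protein coding), the receptor that removes IGF2, had 193, 178 and 193 CPM in the anterior and 209, 598 and 711 CPM in the posterior libraries. Posterior replicate 1 lay just above the anterior values, at 1.11 times their mean, whereas replicates 2 and 3 lay 3.18 and 3.78 times above it. The log2 fold change of 1.43 (SE 0.39, 95% interval 0.51 to 2.34) did not pass the test (adjusted p = 0.0744 in edgeR). It was 0.15 once the library-group term was fitted (95% interval -0.093 to 0.40, adjusted p = 0.504). Without posterior replicate 1 it was 1.80 (adjusted p = 9.55e-06), in a fit that called 5 of the 10 IGF genes toward the posterior palate, as it did 25.3% of all genes. The height of Igf2r in the posterior palate therefore followed the same split of the libraries as the multimapping share, and region and library group cannot be told apart for replicates 2 and 3.

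Among the binding proteins, Igfbp5 and Igfbp4 were the most abundant, and neither was called. Igfbp5 (ENSMUSG00000026185.9; chr1:72857932-72874884, minus strand), which also attaches to extracellular matrix, had 2679, 2539 and 2008 CPM in the anterior and 1581, 2819 and 2741 CPM in the posterior libraries. The single low value was that of posterior replicate 1, and the regions overlapped. Its log2 fold change was -0.017 (SE 0.24, 95% interval -0.57 to 0.54, adjusted p = 0.968). The library-group term gave -0.61 (95% interval -0.96 to -0.26, adjusted p = 0.0523), so that the value moved toward the anterior palate without passing the threshold.

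Igfbp4 (ENSMUSG00000017493.13; chr11:99041244-99054392, plus strand), whose protein releases its ligand when cleaved by the protease PAPPA, had 1049, 1099 and 1173 CPM in the anterior and 1659, 1276 and 1360 CPM in the posterior libraries. The regions did not overlap, and here posterior replicate 1 was the highest. The means were 1107 ± 62.3 and 1432 ± 201 CPM (SD, n = 3), with a log2 fold change of 0.37 (SE 0.13, 95% interval 0.058 to 0.68, adjusted p = 0.144). With the library-group term it was 0.58 (95% interval 0.39 to 0.78, adjusted p = 0.00543), and without posterior replicate 1 it was 0.26 (adjusted p = 0.0188).

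Igfbp3 (ENSMUSG00000020427.12; chr11:7206086-7213923, minus strand), the main carrier of IGFs in the circulation after birth, had 215, 210 and 271 CPM in the anterior and 268, 402 and 437 CPM in the posterior libraries. Posterior replicate 1 fell within the anterior range. The log2 fold change was 0.67 (SE 0.20, 95% interval 0.21 to 1.13, adjusted p = 0.0907), and 0.21 (adjusted p = 0.484) with the library-group term. Without posterior replicate 1 it was 0.86 (adjusted p = 0.000618).

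The other 3 binding protein genes overlapped between the regions. Igfbp2 (ENSMUSG00000039323.19; chr1:72824503-72852474, plus strand), the neighbour of Igfbp5 on chromosome 1, had between 150 and 206 CPM in the anterior and between 177 and 202 CPM in the posterior libraries, with a log2 fold change of 0.13 (95% interval -0.18 to 0.44, adjusted p = 0.554), and 0.22 with the library-group term. Igfbp7 (ENSMUSG00000036256.14; chr5:77349240-77408041, minus strand), a relative with low affinity for IGFs, had 5.39, 9.67 and 15.1 CPM in the anterior and 14.97, 13.1 and 17.2 CPM in the posterior libraries, with a log2 fold change of 0.59 (95% interval -0.18 to 1.37, adjusted p = 0.302), and 0.58 with the library-group term. Igfbp6 (ENSMUSG00000023046.7; chr15:102144362-102149511, plus strand), which prefers IGF2, had 18 to 34 counts per library. Its log2 fold change was -0.0095 (0.40 with the library-group term), with a 95% interval from -0.81 to 0.79, which includes the change seen for Igf2. Antisense reads over Igfbp7 were 12.5% of its sense reads, against 0.31% to 2.11% for the other IGF genes.

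**Figure D3:**
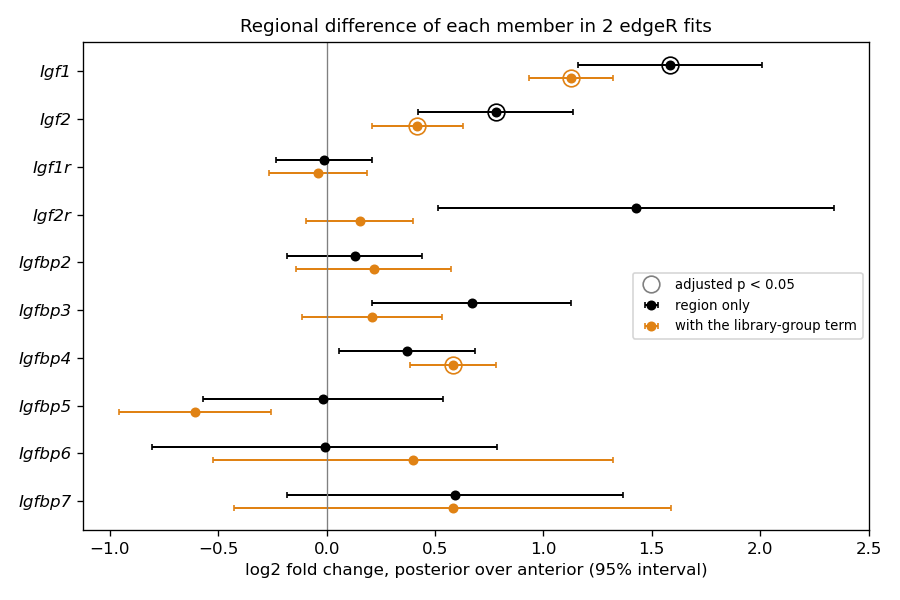
Log2 fold change, posterior over anterior, with 95% intervals, of the 10 IGF genes in the fit with region alone (black) and in the fit with the library-group term (orange), with a ring around calls at an adjusted p below 0.05. Both ligands are ringed in both fits, Igfbp4 in the second alone, and Igf2r falls from 1.43 to 0.15.

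Compared as groups, the ligand genes had larger log2 fold changes toward the posterior palate than most binding protein genes. The median log2 fold change was 1.18 for the 2 ligands, 0.71 for the 2 receptors and 0.25 for the 6 binding proteins, beside -0.0040 for all genes tested, of which 49.6% were above 0. Of the binding proteins, 4 of 6 had a log2 fold change above 0. The ligand median exceeded the binding protein median by 0.93, and by 0.47 with the library-group term. Counted library by library against the anterior mean, the same difference was 0.47, 1.16 and 1.08 in posterior replicates 1 to 3 and 0.19, 0.042 and -0.23 in anterior replicates 1 to 3. The 10 genes were chosen with results of these data known, and these medians are a description with no test. With the library-group term, the calls toward the posterior palate were 3 of the 10 IGF genes (Igf1, Igf2 and Igfbp4), against 4.4% of all genes, and 0 of 10 in the anterior palate, against 3.21%.

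To set genes beside each other, counts were expressed as CPM per kilobase of exon not shared with another gene on the same strand (GENCODE M21). On this scale of levels the summed binding protein level was above the summed ligand level in every library. The summed ligand level was 73.5, 64.7 and 64.3 in the anterior and 102, 152 and 147 in the posterior libraries, and the summed binding protein level was 848, 829 and 813 in the anterior and 848, 994 and 1024 in the posterior libraries. The ligand sum was 8.66%, 7.81% and 7.92% of the binding protein sum in the anterior and 11.99%, 15.2% and 14.3% in the posterior libraries. All 3 posterior shares were above all 3 anterior shares. As a log2 ratio the anterior mean was -3.62 ± 0.081 and the posterior mean -2.86 ± 0.18 (SD, n = 3), a difference of 0.76. The difference was 1.09 on plain CPM and 1.36 with Igf1 as the single ligand. Igf2 makes up most of the ligand sum on this scale, which takes its unshared exons to be covered like the rest. That was not tested, and the Igf2 level could be too low or too high. With the whole exon length, which holds if all its exons were counted, the mean Igf2 level was 20.04 ± 1.57 for the anterior and 34.4 ± 6.62 for the posterior libraries (SD, n = 3), near Igf2r in the anterior palate and overlapping Igf1 in the posterior palate. The ligand sum was then 3.89% to 4.30% of the binding protein sum in the anterior and 6.65% to 8.65% in the posterior libraries, a difference of 0.94 on the log2 scale.

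In the anterior palate the order of levels per kilobase was Igfbp5 (401 ± 59.0, SD, n = 3), Igfbp4 (251 ± 14.1), Igfbp2 (94.0 ± 15.8), Igfbp3 (74.1 ± 10.9), Igf2 (53.9 ± 4.22), Igf2r (20.2 ± 0.92), Igf1 (13.6 ± 0.94), Igf1r (11.2 ± 0.69), Igfbp7 (8.33 ± 4.04) and Igfbp6 (1.74 ± 0.45). Within it Igfbp2 overlapped with Igfbp3 and Igf1r with Igfbp7, and the other neighbours did not overlap. In the posterior palate Igfbp5 (396 ± 115) and Igfbp4 (324 ± 45.6) again came before the others, but overlapped. Igfbp3 (118 ± 28.5), Igfbp2 (103 ± 6.80), Igf2 (92.6 ± 17.8), Igf2r (54.4 ± 28.3) and Igf1 (40.7 ± 9.65) followed, with Igfbp7 (12.5 ± 1.68), Igf1r (11.1 ± 0.71) and Igfbp6 (1.73 ± 0.56) last. In this order Igfbp3, Igfbp2, Igf2 and Igf2r each overlapped the next, as did Igfbp7 and Igf1r, and Igf1 was above Igfbp7 without overlap. Igf1 was thus close to Igf1r in level in the anterior palate and above it in the posterior palate. Igfbp5 made up 52.6%, 51.0% and 41.1% of the summed binding protein level in the anterior and 31.0%, 47.2% and 44.6% in the posterior libraries. In posterior replicate 1 Igfbp4 held the larger share, at 44.3%.

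Outside the 10 genes, a list of 54 other genes of the pathway held 49 that were tested. Of these, 4 were called higher in the posterior palate (Pappa, Htra1, Htra3 and Igf2os), 1 was called higher in the anterior palate (Kazald1) and 44 were not called, beside the same background of 4.87% and 2.59%. The median log2 fold change of the 49 was 0.15. DESeq2 called 9 toward the posterior and 2 toward the anterior palate, against 8.56% and 4.07% of all genes.

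Pappa encodes pregnancy-associated plasma protein A, a metalloprotease that cleaves IGFBP4 and related carriers and so frees the ligand. It had 5.46, 3.93 and 4.15 CPM in the anterior and 28.6, 52.2 and 49.2 CPM in the posterior libraries. All posterior values were far above the anterior ones. Pappa was 9.58-fold higher in the posterior palate (log2 fold change 3.26, SE 0.27, adjusted p = 0.000639 in edgeR) and was called in all 17 fits, between 2.66 and 3.49. Pappa2, a relative that cleaves IGFBP3 and IGFBP5, had 25.3, 51.3 and 37.7 CPM in the anterior and 40.5, 93.7 and 130 CPM in the posterior libraries. The regions overlapped, and its log2 fold change was 1.21 (adjusted p = 0.133) and 0.087 (adjusted p = 0.931) with the library-group term. Pappa2 was called by DESeq2 (adjusted p = 0.0185) and by edgeR with no low-count filter (0.0164). The stanniocalcins, which inhibit these proteases, were not called by edgeR with all libraries and region alone (Stc1 0.28 and Stc2 -0.35 in log2 fold change). Of these 4 genes, 2 were called toward the posterior palate with the replicate block, and 2 without posterior replicate 1. Those fits called 592 and 3877 of all genes in that direction.

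Of 6 secreted proteins with an IGFBP domain, edgeR called 2 toward the posterior and 1 toward the anterior palate, against 4.87% and 2.59% of all genes. Crim1, a membrane-anchored member of this list, had no overlap of regions and a log2 fold change of 0.90 (adjusted p = 0.0892). It was called by DESeq2 (adjusted p = 0.0117) and with no low-count filter (0.00956), and had 0.12 with the library-group term. Htra1, a serine protease, had 27.8, 27.0 and 25.5 CPM in the anterior and 68.8, 50.1 and 63.4 CPM in the posterior libraries (log2 fold change 1.18, SE 0.13, adjusted p = 0.00259). It was called in all 17 fits, at 1.36 with the library-group term. Its relative Htra3 had 7.06, 9.82 and 8.998 CPM in the anterior and 14.1, 19.7 and 15.9 CPM in the posterior libraries (log2 fold change 0.94, SE 0.19, adjusted p = 0.0249). Htra3 was called in 11 of 17 fits. The call was lost with the library-group term (0.71, adjusted p = 0.104) and without any single library other than posterior replicate 1 (adjusted p between 0.0689 and 0.107).

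Kazald1, a Kazal-type protein with an IGFBP domain, had 46.6, 37.6 and 26.3 CPM in the anterior and 3.67, 5.85 and 14.9 CPM in the posterior libraries. It was the IGF pathway gene called higher in the anterior palate (log2 fold change -2.17, SE 0.48, adjusted p = 0.0352), and posterior replicate 3 lay nearest to the anterior values. With the library-group term the value was -3.33. Kazald1 was called in 11 of 17 fits, and not with the replicate block or the length correction. The call was also lost without any single library other than posterior replicates 1 and 3 (adjusted p between 0.0711 and 0.148). Log2 fold changes ran from -2.94 to -1.82 over all 6 omissions. Markers of osteoblasts, cells in which IGF signalling is active, summed to 1972 to 3558 CPM in the anterior and 295 to 1822 CPM in the posterior libraries. Of the 6 tested, 1 was called higher in the anterior palate (Dmp1), against 2.59% of all genes. Most of the anterior sum was Ibsp (1403 to 2692 CPM). Ibsp had 17.9, 143 and 1279 CPM in posterior replicates 1 to 3 and was not called (adjusted p = 0.309 in edgeR). The part of osteoblasts in the Kazald1 difference was not tested.

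**Figure D4:**
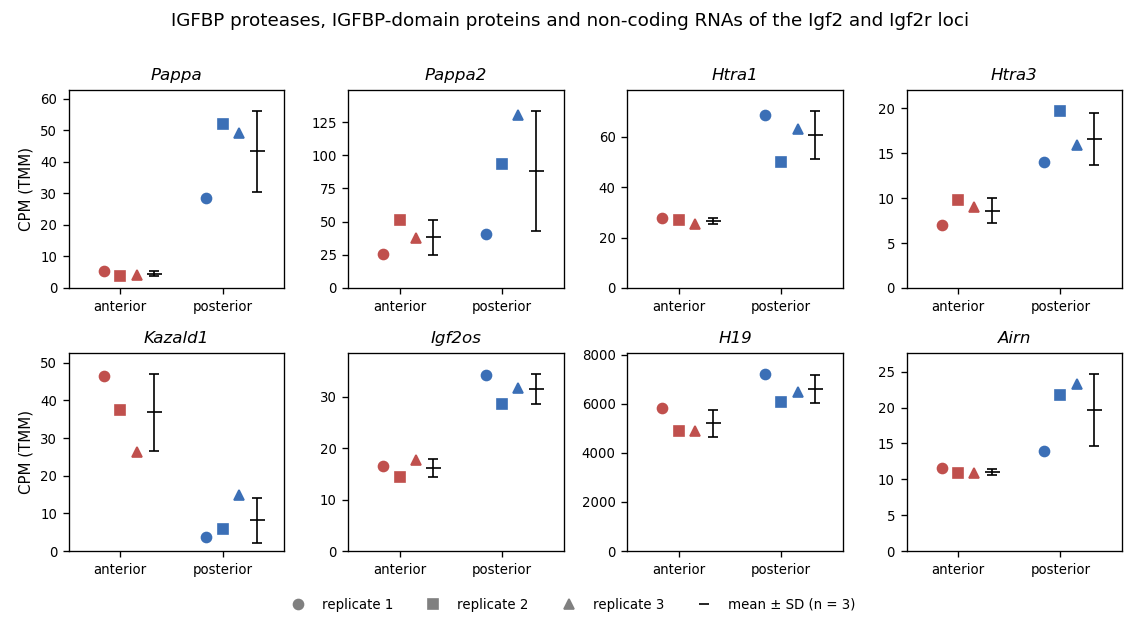
Normalized read counts (CPM, TMM-normalized, linear axes from 0) of 8 pathway genes in 3 anterior (red) and 3 posterior (blue) libraries, with the mean ± SD beside the points. Pappa lies between 3.93 and 5.46 in the anterior and between 28.6 and 52.2 in the posterior palate, and Kazald1 is the gene of the 8 with the higher anterior values.

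Transcripts of the imprinted loci of Igf2 and Igf2r were set beside their neighbours. Igf2os, transcribed from the opposite strand of the Igf2 locus, had 16.5, 14.3 and 17.7 CPM in the anterior and 34.3, 28.5 and 31.6 CPM in the posterior libraries (log2 fold change 0.96, SE 0.13, adjusted p = 0.00484), and was called in all 17 fits, at 1.09 with the library-group term. Its counts were 13.0% to 16.2% of those of Igf2 in the anterior and 22.4%, 12.8% and 14.7% in the posterior libraries. Reads on the other strand than the gene were 4.33% to 5.28% of sense reads in whole libraries. If Igf2 reads in the shared exons were not counted for Igf2, strand errors from them could not be set apart from Igf2os, and their part in its counts was not tested. H19, a maternally expressed non-coding RNA that shares an imprinting control region with Igf2, had 5811, 4878 and 4901 CPM in the anterior and 7204, 6063 and 6490 CPM in the posterior libraries (log2 fold change 0.34, adjusted p = 0.199). The library-group term brought H19 past the threshold, at 0.47 (adjusted p = 0.0454). Airn, the antisense RNA of Igf2r that silences the paternal copy in cis, had 11.5, 10.8 and 10.8 CPM in the anterior and 13.9, 21.7 and 23.3 CPM in the posterior libraries. The regions of Airn did not overlap, with a log2 fold change of 0.83 just outside the threshold (adjusted p = 0.0512, against 0.00729 in DESeq2 and 0.0114 with no low-count filter, both calls), and 0.33 (adjusted p = 0.253) with the library-group term. Plagl1, an imprinted zinc finger factor of the same gene network, had 0.61 (adjusted p = 0.0871), was called by DESeq2 (adjusted p = 0.0140) and with no low-count filter (0.0225), and had 0.18 (adjusted p = 0.376) with the library-group term. Of Igf2os, H19, Airn and Plagl1, 3 were called higher in the posterior palate with a correction for transcript length, in a fit that called 858 genes so. Without posterior replicate 1 all 4 were called so, beside 25.3% of all genes. Ins2, which lies beside Igf2, had 0 counts in every library, which allows up to 0.260 CPM.

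Downstream of the receptor, 0 of 21 genes of the PI3K, AKT and mTOR arm were called by edgeR, beside 4.87% and 2.59% of all genes, with log2 fold changes from -0.37 (Foxo1) to 0.73 (Rictor) and a median of 0.13. Without posterior replicate 1, 8 of the 21 were called toward the posterior and 3 toward the anterior palate. That fit called 25.3% of the 15349 genes tested toward the posterior palate and 3242 of them toward the anterior palate. Rictor, a subunit of an mTOR complex, had 24.3, 25.7 and 31.3 CPM in the anterior and 22.6, 56.9 and 54.9 CPM in the posterior libraries, and a value of -0.26 with the library-group term. The 6 receptor adaptors had a median of -0.17, and Irs1, the docking protein of IGF1R, had a log2 fold change of -0.35 (adjusted p = 0.0823 in edgeR and 0.0340 in DESeq2). Of the 4 receptor inhibitors none was called by edgeR with all libraries, region alone and the low-count filter. Socs2 was at 0.59 (adjusted p = 0.100) and Grb10, itself imprinted, at 0.40 (adjusted p = 0.208). Socs2, a feedback inhibitor of growth hormone and IGF signalling, was called by DESeq2 (adjusted p = 0.0383), with no low-count filter (0.0297) and with the library-group term (0.98, adjusted p = 0.000743). Across the family of Igf2bp genes, whose proteins bind Igf2 mRNA, log2 fold changes lay between -0.21 and -0.0033 with no call. Igfbp1, Igfals, Ins1, Ins2 and Insrr had too few counts to pass the low-count filter, at most 7 in any library. These counts are of transcripts and do not measure signalling.

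Other cell types were set beside the ligands by their marker lists. Over all genes tested, 4.87% were called higher in the posterior and 2.59% in the anterior palate. Myeloid markers, which include genes of macrophages, a known source of IGF1, summed to 125 to 146 CPM in the anterior and 160 to 215 CPM in the posterior libraries, with 0 of 8 called and a median log2 fold change of 0.39. Chondrocyte markers summed to 202 to 294 and 555 to 817 CPM, with 3 of 6 tested called higher in the posterior palate. Most of the posterior sum was Col2a1 (398 to 573 CPM), and Col11a2 had a log2 fold change of -0.46. Tendon markers summed to 40.1 to 51.3 and 156 to 174 CPM, with Kera at 74.6 to 100 CPM in the posterior libraries. In that list 3 of 5 were called higher in the posterior and 1 (Tnmd) in the anterior palate. Endothelial markers (545 to 581 against 474 to 729 CPM), epithelial markers (1555 to 1655 against 1070 to 1784 CPM, with Trp63 called higher in the anterior palate) and erythroid markers (1112 to 1354 against 799 to 1518 CPM) overlapped between the regions. Mural markers overlapped as well (355 to 509 against 274 to 559 CPM), with 2 of 6 called higher in the anterior palate. Neuronal and glial markers summed to 219.9 CPM in posterior replicate 2 and to 26.8 to 57.1 CPM in the other 5 libraries, with 0 of 6 called. Markers of palatal mesenchyme, a tissue of the palatal shelf, were abundant in both regions (1995 to 2282 against 1541 to 1848 CPM). Of these 7, 3 were called higher in the anterior palate (Prrx1, Lhx8 and Msx1) and 2 in the posterior palate (Twist1 and Pdgfra), and Msx1 was at 1.03 to 1.37 CPM in the posterior palate. The part of skeletal muscle, cartilage, tendon, nerve or myeloid cells in the posterior levels of Igf1, Igf2 and Pappa was not tested. In bulk samples fewer cells of a type and less RNA per cell cannot be told apart.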

How the data were processed

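The values that the authors deposited are raw read counts by Ensembl gene and library, unstranded and by strand, laid out as STAR lays them out. Both the study's methods and the submitters' processing notes name HISAT2, StringTie, DESeq2 1.30.1 and mm10, and the annotation version is not given in the sources used here. The reverse-stranded counts were used, at 18.95 to 23.1 times those of the other strand. Rows that name no gene, 18.1% to 22.2% of reads, stayed out. Of 56691 identifiers, 52073 had a symbol in GENCODE M21 with versions dropped and 35 kept the same version.

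Genes that reached 10 counts in 3 or more libraries were fitted together with edgeR 4.0.16 in R 4.3.3 (TMM, quasi-likelihood test, region as the only term), and p-values were adjusted over all genes. Some of the fits were also run on simulated counts, with the same dispersion for every gene and no library-group difference, a simpler setting than these data. Replicates differed by more than sampling noise (chi-square per gene 3.73 to 68.0). DESeq2 1.42.0, limma 3.58.1 (voom), RLE scaling, library size only, filters, unstranded counts, a replicate block, the library-group term, a transcript length correction and leaving out each library were alternatives. Members and lists were chosen with earlier results of these data known. Named were all 10 IGF genes, every pathway gene called by edgeR with the settings above, genes of the imprinted loci and, where counts needed them, others chosen after their values were seen.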

Additional observations from a re-analysis of the deposited data

How the results depend on the processing

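Igf1, Pappa, Htra1 and Igf2os kept their direction and their call under every alternative run. DESeq2 called 1341 genes higher in the posterior and 637 in the anterior palate and no low-count filter called 1516 and 646, against 763 and 406. Of the IGF genes both called 4 in place of 2, adding Igf2r (1.42 and 1.43) and Igfbp3 (0.67 in both), and of the pathway genes both called 9 in place of 4 higher in the posterior palate. DESeq2 also called 2 pathway genes higher in the anterior palate. Deviations of same-numbered libraries of the regions had correlations of -0.053, 0.045 and 0.036, against -0.13 to 0.090 for libraries of different numbers. The labels do not say whether numbers pair the regions. With 3 libraries per region these correlations cannot decide it. The replicate block called 592 genes higher in the posterior and 237 in the anterior palate. Of the IGF genes it called 1, Igf1, toward the posterior palate, with Igf2 at 0.76 (adjusted p = 0.0622). Of the pathway genes it called 5 higher in the posterior and 0 in the anterior palate. The length correction also left 0 pathway genes higher in the anterior palate, so that Kazald1 lost its call in both. The library-group term raised Igfbp4 to 0.58 past the threshold, and narrowed the difference of the ligand and binding protein medians to 0.465. The length correction moved Igf1r to -0.40. Igfbp6 changed sign, at 0.40 with that term and 0.16 with the length correction. The log2 ratio of ligands to binding proteins differed by 1.09 on CPM, by 1.36 without Igf2 and by 0.94 with whole exon lengths, an alternative chosen after seeing the data.

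Leaving out each library in turn gave 312 to 3877 genes higher in the posterior and 140 to 3242 in the anterior palate, 1 to 5 IGF genes, and 3 to 21 and 0 to 8 pathway genes, with every highest count without posterior replicate 1. Log2 fold changes ranged from 0.69 to 0.94 for Igf2, -0.061 to 0.031 for Igf1r, 1.10 to 1.80 for Igf2r, 0.53 to 0.86 for Igfbp3, 0.26 to 0.45 for Igfbp4, -0.15 to 0.21 for Igfbp5, -0.25 to 0.21 for Igfbp6, 0.030 to 0.27 for Igfbp2, 0.28 to 1.00 for Igfbp7 and -2.94 to -1.82 for Kazald1. The cause was not tested. With 3 libraries against 3, an exact permutation test of a single gene cannot go below p = 0.1.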
